A study of Mus musculus with 14 samples.

Results

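The 9 genes described here encode enzymes that place acetyl groups on lysine, subunits that bring such enzymes to chromatin, and 1 protein that reads the mark. They were taken as a named list out of 21887 mouse protein-coding genes. The acetyltransferases were Ep300, Crebbp, Kat2a, Kat2b, Kat6a and Kat8, the subunits were Tada2a and Kansl3, and the reader was Brd2. The list was drawn up with earlier results of these libraries in view. Tada2a and Kansl3 were put on it because their ranks were lower with pracinostat, so their values are given as a description and carry no test, whereas the other 7 genes were tested.

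Lysine acetyltransferases transfer an acetyl group from acetyl-CoA to histone tails. Histone deacetylases remove it, and proteins with a bromodomain bind the acetylated tail and recruit the transcription machinery. p300 (encoded by Ep300) and CBP (Crebbp) are the main enzymes that acetylate lysine 27 of histone H3, the mark called H3K27ac, which lies at active promoters and enhancers. In macrophages, H3K27ac at enhancers changes with the signals of the tissue and the tumour around the cell.

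The libraries came from CD11b+ tumour-associated macrophages sorted by flow cytometry out of T387 glioblastoma xenografts, which had been implanted in the brain of NSG mice, a strain that lacks T, B and NK cells. Treated mice received pracinostat, an oral histone deacetylase inhibitor, by gavage over 3 weeks, with 4 doses in each week and the first on day 7 of tumour growth. The labels give its dose as 30 mg/kg in one protocol and 3 mg/kg in another. Control mice, called DMSO here, received the same DMSO, PEG300, Tween-80 and PBS solvent without the drug. CUT&Tag uses a transposase tethered by an antibody to cut and label the DNA near its target. It was run with an H3K27ac antibody on 4 pracinostat and 3 DMSO samples and with non-specific IgG on 4 pracinostat and 3 DMSO samples. The labels number the samples as biological replicates without saying which animals gave them.

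Each library was deposited as a list of summits, the single bases at the top of each called peak, with a −log10 significance value that grows with depth. Read numbers were not among the sources used here. H3K27ac lists held 229609 to 289017 summits with pracinostat and 53503 to 291042 with DMSO. DMSO replicate 2 stood apart with 53503 summits, of which 65.3% shared its lowest value, against 15.2% to 25.2% in the other 6 lists. Percentile differences at gene ends and starts that moved by more than 1.5 times without it are given both ways, as are marker sums whose range it set. The 14 macrophage and microglia markers checked against the label had a summit at the ends of all 14 in every pracinostat library and of 13 or 14 in DMSO libraries. Of all genes, 58.4% to 61.4% had one with pracinostat and 38.8% to 61.6% with DMSO. The mean gene end percentile of the markers, defined next, was 68.0 to 82.2 with pracinostat and 63.2 to 69.4 with DMSO, or 65.9 to 69.4 without DMSO replicate 2.

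Since the values could not be compared between libraries, each gene was ranked inside its own library. The gene end percentile is the rank of the highest summit within 1 kb of either end of the gene, among 13494 genes with such a summit in at least 3 of the 7 H3K27ac libraries. All 9 genes were ranked. A gene without a summit shares the lowest percentile of its library. Such ranks show whether a gene moved relative to other genes, and a change of the same size at every gene would leave them as they were. In sorted cells measured in bulk, less mark per cell cannot be told apart from fewer cells that carry it.

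The 250 bases before the RefSeq start site are shown for 4 genes: Tada2a and Kansl3, whose percentiles are described most fully below, and Kat8 and Brd2, whose starts held summits in all 7 libraries. They are RefSeq sequences of GRCm38.p6, the assembly that mm10 names, written 5′ to 3′ toward the start. They lie at chr11:84129569-84129818 on the minus strand (Tada2a), chr1:36369182-36369431 on the minus strand (Kansl3), chr7:127912267-127912516 on the plus strand (Kat8, the first of 2 starts) and chr17:34122608-34122857 on the minus strand (Brd2, the outermost of 3 starts). Capitals mark matches, on either strand, to 4 short motifs.
Tada2a: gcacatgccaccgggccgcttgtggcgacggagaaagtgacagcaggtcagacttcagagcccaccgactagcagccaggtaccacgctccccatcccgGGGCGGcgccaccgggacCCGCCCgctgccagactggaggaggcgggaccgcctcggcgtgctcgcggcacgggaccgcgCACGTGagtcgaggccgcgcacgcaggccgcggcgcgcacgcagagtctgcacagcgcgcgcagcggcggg
Kansl3: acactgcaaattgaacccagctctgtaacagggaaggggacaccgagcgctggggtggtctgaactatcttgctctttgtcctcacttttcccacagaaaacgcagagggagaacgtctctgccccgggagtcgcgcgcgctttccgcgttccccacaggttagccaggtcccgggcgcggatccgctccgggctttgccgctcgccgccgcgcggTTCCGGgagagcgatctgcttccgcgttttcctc
Kat8: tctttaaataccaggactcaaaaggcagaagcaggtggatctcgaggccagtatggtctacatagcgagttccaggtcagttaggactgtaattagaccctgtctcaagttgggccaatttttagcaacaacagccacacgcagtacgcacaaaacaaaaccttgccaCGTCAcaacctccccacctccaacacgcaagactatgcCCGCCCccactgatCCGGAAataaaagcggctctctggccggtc
Brd2: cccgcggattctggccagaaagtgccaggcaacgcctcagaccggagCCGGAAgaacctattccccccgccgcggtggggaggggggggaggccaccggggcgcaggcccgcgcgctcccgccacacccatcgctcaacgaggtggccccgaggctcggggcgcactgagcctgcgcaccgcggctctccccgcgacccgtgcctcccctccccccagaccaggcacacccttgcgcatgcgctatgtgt

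The motifs searched were the cyclic AMP response element core TGACG, the GC box GGGCGG, the ETS core CCGGAA and the E-box CACGTG. Among 32851 RefSeq promoters of the same length, 17.8%, 32.7%, 12.0% and 6.02% held them in that order. The Tada2a stretch held GC boxes at 151 and 133 bases before the start and an E-box at 71. Kansl3 held an ETS core at 34 bases. Kat8 held the response element core at 82, a GC box at 44 and an ETS core at 30. Brd2 held an ETS core at 203. No match lay across another motif. The G and C content was 74.4% for Tada2a, 62.8% for Kansl3, 51.2% for Kat8 and 73.6% for Brd2, beside a median of 52.4% over all these promoters. These letter matches are descriptions and do not show that a factor bound there.

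p300 and CBP are large paralogous acetyltransferases that act as coactivators at enhancers. Ep300 was high among genes in both groups, at 74.9, 76.0, 78.3 and 69.2 in pracinostat replicates 1 to 4 and at 76.3, 62.6 and 86.2 in DMSO replicates 1 to 3. The pracinostat libraries all fell inside the DMSO range. Its mean percentile was 74.6 ± 3.84 with pracinostat (SD, n = 4) and 75.0 ± 11.9 with DMSO (SD, n = 3). On the normal-score scale, where 1 unit is 1 SD of the scores of all genes, the difference was -0.04 ± 0.38 (SE), or -0.24 ± 0.42 without DMSO replicate 2. Its adjusted p was 0.997 by limma over all 13494 genes. Ep300 was also ranked within 1 kb of its RefSeq start, among 10153 genes. The difference there was -0.431 percentile points, or -7.30 without DMSO replicate 2.

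Crebbp had lower values and a wider spread. Its percentiles were 5.15, 52.9, 35.4 and 71.4 with pracinostat, and pracinostat replicate 1 had no summit at either end. With DMSO they were 54.1, 62.6 and 74.1. The groups overlapped, with means of 41.2 ± 28.2 with pracinostat and 63.6 ± 10.0 with DMSO. The normal-score difference was -0.70 ± 0.39, with an adjusted p of 0.833 by limma, the lowest of the 7 tested genes. Without pracinostat replicate 1, the library with no summit in the gene end windows, the difference was -0.27. In no gene of this comparison did the adjusted p pass 0.05, a background of 0%, and at an unadjusted p under 0.05 the background was 832 genes or 6.17%. None of the 7 tested genes had an unadjusted p under 0.05. Pracinostat replicate 1 did have a summit 476 bp from the Crebbp RefSeq start, more than 1 kb from the gene end. All 4 pracinostat and all 3 DMSO libraries had a summit within 1 kb of that start. Ranked there among 10153 genes, Crebbp stood at 23.7, 46.0, 28.5 and 67.1 with pracinostat and 47.3, 57.6 and 69.9 with DMSO. The groups overlapped, and limma's adjusted p was 0.919.

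The strongest summit around Crebbp did not lie at its start. Over the gene plus 10 kb on both sides, that summit lay in the same site in all 7 libraries, chr16:4077493-4077966, which lies outside the gene at -3678 bp from its lower-coordinate end, the 3′ end, and 184 bp from an end of Trap1, a mitochondrial chaperone gene. It was also the single one of 147 summit sites over Crebbp seen in all 7 libraries, where a site joins summits within 250 bp of each other. The span percentile of Crebbp, the rank of its highest summit over that stretch among 18082 genes, was therefore high, at 71.5, 86.3, 98.2 and 94.6 with pracinostat and 96.8, 73.0 and 94.4 with DMSO. Ep300 differed from it, since its 2 sites seen in all 7 libraries both lay within 1 kb of its start. The Ep300 span percentile was 61.4 to 71.2 with pracinostat and 52.0 to 81.3 with DMSO.

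Kat2a (GCN5) and Kat2b (PCAF) are alternative catalytic subunits of the SAGA and ATAC complexes and acetylate mainly lysine 9 of histone H3. The gene end percentile of Kat2a was 45.0, 52.9, 54.7 and 45.4 with pracinostat and 39.8, 62.6 and 52.4 with DMSO. The means were 49.5 ± 5.03 and 51.6 ± 11.4, and limma's adjusted p was 0.993. The normal-score difference was -0.05 ± 0.35, and 0.09 ± 0.36 without DMSO replicate 2. These values came mainly from the 3′ end, which lies 475 bp from an end of Dhx58, a gene for an antiviral RNA sensor. Within 1 kb of its own RefSeq start, ranked among the 10153 genes with such summits, Kat2a stood at only 10.2, 8.06, 11.8 and 13.8 with pracinostat and 4.29, 57.6 and 12.8 with DMSO. The value of 57.6 was that of DMSO replicate 2, and the difference at the start was -13.9 points with that library and 2.42 without it. All 9 summit sites over Kat2a that were seen in 6 or 7 libraries had their median position outside the gene and more than 1 kb from its ends, nearest to the ends of Dhx58, the small heat shock gene Hspb9 and Rab5c, a gene for an endosomal GTPase.

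Despite its weak start, Kat2a sat in a stretch dense with summits. It had 26, 31, 25 and 32 summits over its 27.7 kb with pracinostat and 24, 9 and 23 with DMSO. Ranked by summits per kb among 18082 genes, it was at 97.2, 98.1, 97.4 and 99.1 with pracinostat and 96.7, 97.2 and 95.4 with DMSO. Its lowest pracinostat library was just above its highest DMSO library. Of all genes 3.19% had groups that did not overlap in that direction, and limma's adjusted p was 0.843. The normal-score difference of 0.26 turned to -0.29 when each list was limited to its 18000 strongest summits.

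Kat2b was the one tested gene with a higher gene end percentile with pracinostat. It stood at 45.0, 43.4, 41.0 and 54.0 with pracinostat and at 29.9, 19.0 and 39.5 with DMSO. DMSO replicate 2 had no summit in the gene end windows, but had one 932 bp from the outer RefSeq start. The groups did not overlap, as was the case in that direction for 2.88% of all genes. The means were 45.8 ± 5.67 with pracinostat and 29.5 ± 10.3 with DMSO, the normal-score difference was 0.45 ± 0.34, and limma's adjusted p was 0.877. The difference was 0.29 ± 0.36 without DMSO replicate 2. It turned to -0.0209 with windows of 500 bp and to -0.0319 with windows of 2.5 kb. Counted at its RefSeq starts alone, Kat2b averaged 41.6 ± 6.03 with pracinostat and 42.8 ± 12.8 with DMSO, and the groups overlapped. That difference was -1.22 points, and 6.16 points without DMSO replicate 2. Kat2b has 2 such starts, and the site at the inner one, chr17:53583870-53584516, held summits in 6 of 7 libraries.

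**Figure D1:**
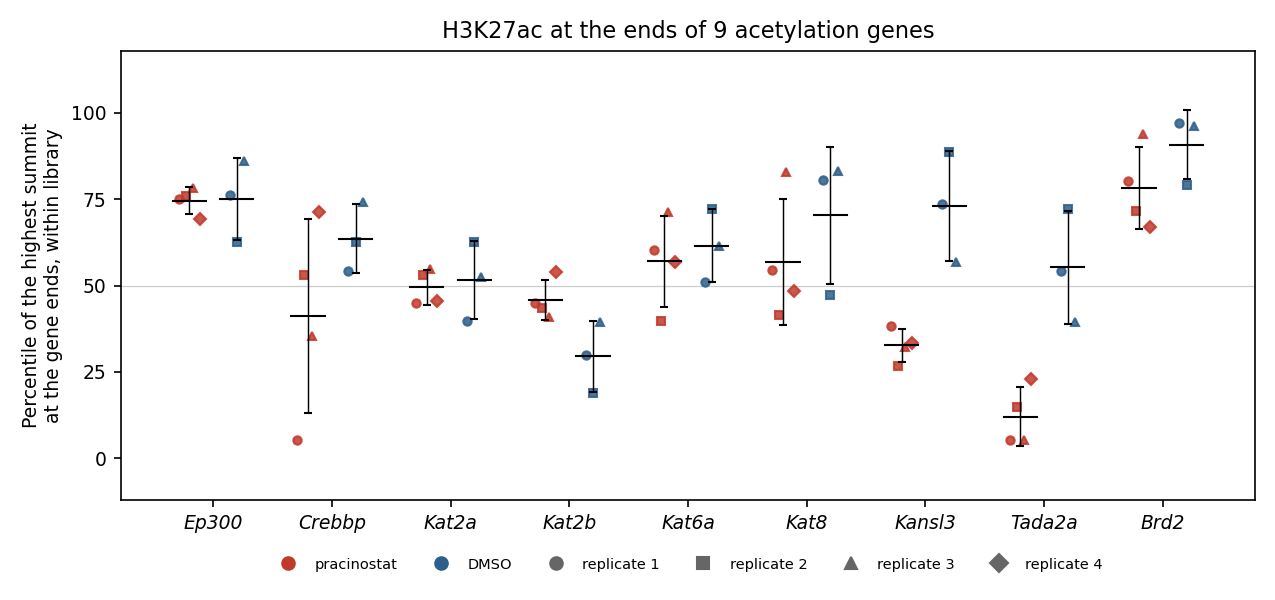
Gene end percentile (vertical axis, 0 to 100, within each library) of the 9 genes in the 4 pracinostat libraries, drawn left, and the 3 DMSO libraries, drawn right of them. Points are libraries, and horizontal and vertical lines give the mean and SD of a group. For Tada2a and Kansl3 all pracinostat points lie below all DMSO points.

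Kat6a and Kat8 belong to the MYST family. Kat6a (MOZ) acts with bromodomain and PHD finger proteins and acetylates histone H3, and Kat8 (MOF) acetylates lysine 16 of histone H4 in the MSL complex and further sites in the NSL complex. Kat6a stood at 60.3, 39.7, 71.4 and 56.7 with pracinostat and at 51.1, 72.3 and 61.3 with DMSO. The groups overlapped, with means of 57.0 ± 13.1 and 61.6 ± 10.6 and an adjusted p of 0.975 by limma. The normal-score difference was -0.12 ± 0.36, and 0.03 ± 0.38 without DMSO replicate 2. Kat6a had 8 sites in 6 or 7 libraries, of which 7 lay inside the gene.

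Kat8 varied widely within both groups. Its percentiles were 54.5, 41.6, 82.8 and 48.4 with pracinostat and 80.6, 47.3 and 83.1 with DMSO. The means were 56.8 ± 18.1 with pracinostat and 70.3 ± 19.9 with DMSO, the normal-score difference was -0.38 ± 0.38, and limma's adjusted p was 0.927. Without DMSO replicate 2 it was -0.71 ± 0.41, with an adjusted p of 0.974 by limma, and the groups still overlapped. At the RefSeq starts of Kat8 the difference was -15.8 percentile points, or -28.1 without DMSO replicate 2. The site at its start, chr7:127912136-127913070, held summits in all 7 libraries. The summit nearest to a start lay at -28, -32, 2 and 21 bp from it with pracinostat and at -23, 146 and -9 bp with DMSO, where negative values are upstream.

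At the opposite, 3′ end of Kat8 the libraries split by group. All 4 pracinostat libraries had a summit within 1 kb of that end, with 2, 2, 1 and 2 summits, and 0 of 3 DMSO libraries had one. Of 43774 single gene end windows, 0.343% showed this pattern and 0.032% showed the opposite one. The Kat8 end was picked out after its values were seen. The window is shared with Prss8, a gene for a serine protease whose end lies 121 bp away and whose gene end percentile was 26.7, 20.1, 21.9 and 33.2 with pracinostat and 5.61, 19.0 and 3.83 with DMSO. Without DMSO replicate 2 the other DMSO libraries still had no summit there.

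Tada2a encodes ADA2a, an adaptor subunit that joins GCN5 or PCAF to the ATAC complex. It had the lowest mean gene end percentile of the 9 genes with pracinostat. Its values there were 5.15, 14.9, 5.23 and 23.0, and pracinostat replicates 1 and 3 had no summit at either end. With DMSO it stood at 54.1, 72.3 and 39.5. All pracinostat libraries lay below all DMSO libraries. The means were 12.1 ± 8.62 with pracinostat and 55.3 ± 16.4 with DMSO, a difference of -43.2 percentile points, or -34.7 without DMSO replicate 2. Of all genes, 3.79% had groups that did not overlap in this direction. Tada2a was chosen on this measure, so nothing is read from that share.

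The Tada2a value did not come from 1 position in all libraries. Its start lies 9 bp from an end of Acaca, which encodes the acetyl-CoA carboxylase that commits acetyl-CoA to fatty acid synthesis, and a summit there cannot be assigned to either gene. Acaca had the same 4 percentiles with pracinostat and stood at 54.1, 72.3 and 12.0 with DMSO. In DMSO replicate 3 the summit counted for Tada2a lay at its far 3′ end instead. Counted at the RefSeq start alone, Tada2a stood at 4.22, 10.0, 4.36 and 16.5 with pracinostat and at 47.3, 68.4 and 3.56 with DMSO, and the groups overlapped. That difference was -31.0 points, and -16.7 without DMSO replicate 2. No summit lay within 1 kb of the start in pracinostat replicates 1 and 3 and in DMSO replicate 3. In the other libraries the nearest summit lay at 442 and -472 bp from the start with pracinostat and at 257 and 210 bp with DMSO.

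Tada2a was also the gene with the fewest summits. Over its 70.7 kb it had 4, 8, 15 and 10 summits with pracinostat and 5, 1 and 13 with DMSO, and of its 41 sites 30 were seen in 1 library and 0 in 6 or 7. Its span percentile was 12.1, 24.6, 32.1 and 27.2 with pracinostat and 49.6, 64.5 and 32.1 with DMSO, and the groups overlapped. By summits per kb it stood at 20.1 to 50.2 with pracinostat and 26.3 to 37.3 with DMSO. No summit of any library fell in the 250 bases of Tada2a printed above. The same was so for the 250 bases before the starts of Ep300 and Crebbp. Both of those had a summit within 1 kb of the start in all 4 pracinostat and all 3 DMSO libraries. The other printed stretches held one in 2 pracinostat libraries each, and in 2 DMSO libraries for Kansl3 and Kat8 and 1 for Brd2.

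Kansl3 encodes a subunit of the NSL complex, in which Kat8 acetylates histone H4 at promoters of housekeeping genes. Its gene end percentile was 38.3, 26.7, 32.3 and 33.2 with pracinostat and 73.7, 88.7 and 56.9 with DMSO, and the groups did not overlap. The means were 32.6 ± 4.74 and 73.1 ± 15.9, a difference of -40.4 points, or -32.7 without DMSO replicate 2. At its RefSeq start alone it stood at 30.6, 19.3, 25.6 and 25.6 with pracinostat and 69.3, 86.8 and 50.7 with DMSO. In every library the summit counted there had the same value as the one that set the gene end percentile. Of all genes 3.5% showed this order at their starts. Kansl3 was chosen for its lower ranks, so nothing is read from that share. Every library had a summit at the start, so for Kansl3 the difference was one of rank and not of presence. The nearest summit lay at 548, -148, -143 and 785 bp from the start with pracinostat and at -12, -21 and 574 bp with DMSO.

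Over its span Kansl3 was at 37.4, 28.6, 50.4 and 37.7 with pracinostat and 68.1, 84.6 and 63.5 with DMSO, a difference of -33.6 points, or -27.3 without DMSO replicate 2. Non-overlap in this direction occurred in 3.36% of all genes, and nothing is read from that share either, since Kansl3 was chosen for lower ranks. With pracinostat, the strongest summit of the span lay 26.1 and 26.4 kb from the 5′ end of the gene in replicates 1 and 2, and 43.3 and 43.0 kb from it in replicates 3 and 4. With DMSO it lay at the start in replicates 1 and 2 and 43.2 kb from the 5′ end in replicate 3. The position near 43 kb is outside the gene, beyond its 3′ end, and nearest to an end of Arid5a, which encodes an RNA-binding regulator of inflammatory transcripts. That site, chr1:36325893-36326355, and one inside the gene near its start, chr1:36368151-36368792, were the 2 of its 59 sites found in 6 libraries. The strongest summits of DMSO replicates 1 and 2, at the start itself, lay outside the second site. By number the groups were alike in range, with 21, 13, 19 and 28 summits with pracinostat and 20, 4 and 24 with DMSO. Its density percentile was 55.9 to 77.9 with pracinostat and 65.2 to 74.8 with DMSO. The density difference was -0.04 in normal scores over the full lists, and -1.25 over lists limited to the 18000 strongest summits.

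**Figure D2:**
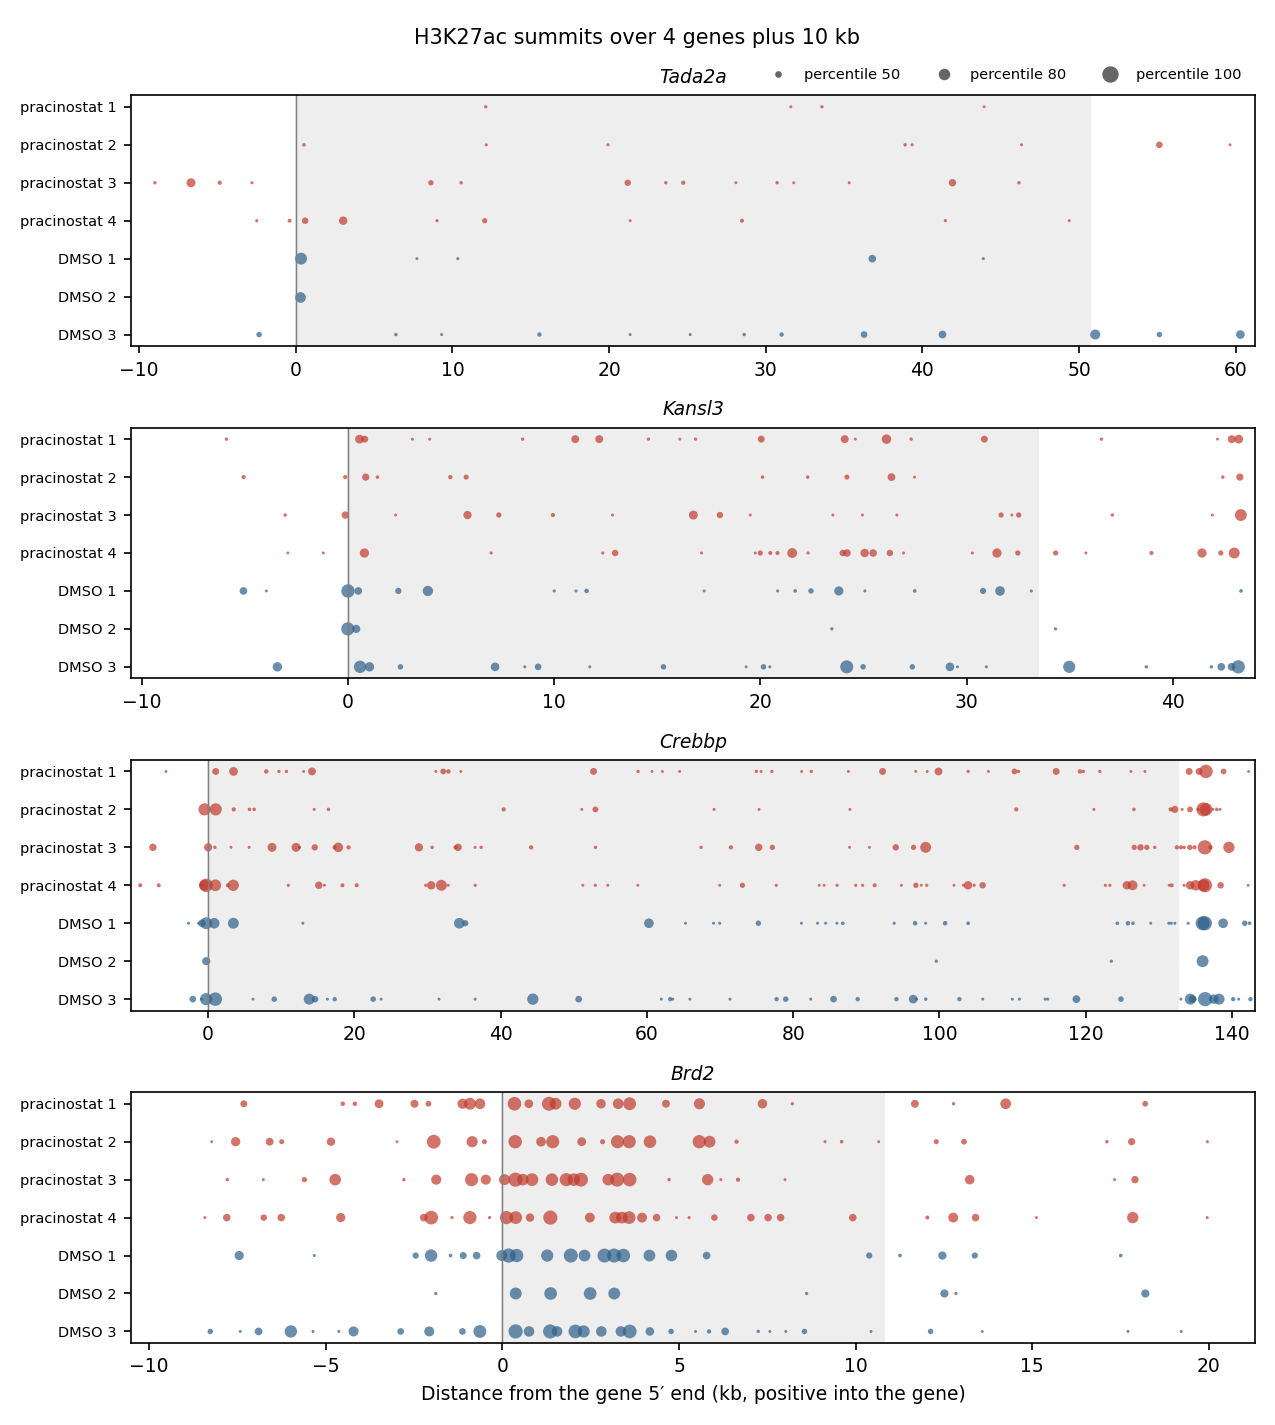
Summits of Tada2a, Kansl3, Crebbp and Brd2 by distance in kb from the 5′ end of the gene (horizontal axis, gene span plus 10 kb), with 1 row per library and the 4 pracinostat rows above the 3 DMSO rows. The strongest summit of Crebbp lies about 136 kb from its 5′ end in every row, and DMSO replicate 2 has the fewest summits at each gene.

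Neutrophils also carry CD11b. Of 11 neutrophil markers 9 were ranked, with 8 lower and 1 higher in mean with pracinostat and 0 called by limma. Their summed gene end percentile was 161 to 253 with pracinostat and 268 to 400 with DMSO, without overlap. Without DMSO replicate 2, the DMSO range was 268 to 324, and the median difference of the markers was -6.03 points in place of -13.5. Retnlg had no summit at its ends in any H3K27ac library. The part of these values in the result was not tested. The summed percentiles of lymphocyte markers (7 of 11 ranked) were 138 to 245 with pracinostat and 173 to 212 with DMSO, and those of neuron and astrocyte markers (4 of 10 ranked) were 80.5 to 161 and 75.9 to 97.4, or 81.9 to 97.4 without DMSO replicate 2. Oligodendrocyte markers (4 of 8 ranked) came to 104 to 137 with pracinostat and 113 to 218 with DMSO, and endothelial and mural markers (5 of 8 ranked) to 107 to 174 and 58.8 to 177. The DMSO ranges of these lists were 113 to 155 and 58.8 to 157 without DMSO replicate 2. Cd8a, Syt1, Snap25, Map2, Mag and Olig1 had no summit at their ends in any H3K27ac library.

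The genes whose percentiles ran closest to those of Kansl3 over the 7 libraries were Ago2, Slc35a1 and Agtpbp1, with mean absolute differences of 7.11, 7.38 and 7.93 points. For Tada2a they were Arhgef37, Usp31 and Ube2v2, at 6.64, 7.01 and 7.48 points.

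Brd2 encodes a bromodomain protein of the BET family, which binds acetylated histones and recruits transcriptional elongation factors. It had the highest mean gene end percentile of the 9 genes in both groups. It stood at 80.4, 71.5, 94.0 and 66.9 with pracinostat and at 97.2, 79.2 and 96.1 with DMSO. Pracinostat replicates 1 and 3 lay above the lowest DMSO library, so the groups overlapped. The means were 78.2 ± 11.9 and 90.8 ± 10.1, the normal-score difference was -0.64 ± 0.42, and limma's adjusted p was 0.861. Without DMSO replicate 2, the library with the lowest DMSO value, the groups did not overlap. The difference was then -0.98 ± 0.45, with an unadjusted p of 0.0360 and an adjusted p of 0.974 by limma. In that setting 687 of 13494 genes had an unadjusted p under 0.05 by limma. The share of all genes whose groups did not overlap in that setting was not counted, so nothing is read from the split.

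At its RefSeq starts, which number 3, Brd2 stood at 87.1, 67.3, 93.1 and 93.5 with pracinostat and 96.6, 82.2 and 95.5 with DMSO. The difference was -6.155 points, and -10.8 without DMSO replicate 2, beside -12.6 and -18.4 at the gene ends. Without that library all pracinostat values at the starts lay below those of DMSO. That pattern was not counted over all genes either, so nothing is read from it. Of its 37 sites, 6 were seen in all 7 libraries and 9 in at least 6, the most of the 9 genes on the first count and as many as Kat2a on the second. They ran in a chain over the gene and its upstream side, where the table also places H2-DMa, a gene for a subunit that loads peptides on MHC class II. Its 25, 28, 27 and 33 summits with pracinostat and 24, 9 and 34 with DMSO put it at density percentiles of 95.0 to 98.3 and 95.1 to 99.3.

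**Figure D3:**
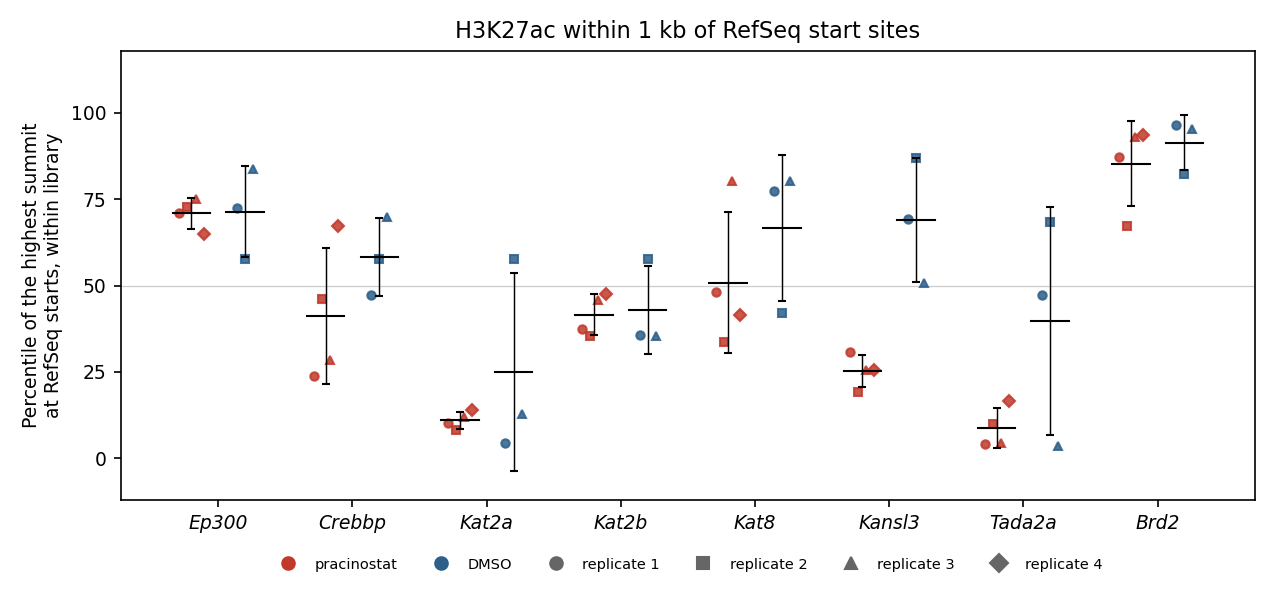
Percentile of the highest summit within 1 kb of RefSeq start sites (vertical axis, within each library) for the 8 genes with an entry, pracinostat libraries left of DMSO libraries, with points for libraries and lines for mean and SD. Kansl3 is the gene whose groups are apart, while Tada2a overlaps through DMSO replicate 3.

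Taking the 7 tested genes together, 6 had a lower mean gene end percentile with pracinostat and 1 a higher one, where 51.1% of all genes had a lower one. Without DMSO replicate 2 the split was 4 lower and 3 higher, beside 50.8% lower of all genes. Adjusted p-values ran from 0.833 to 0.997 by limma, and from 0.974 to 0.999 without that library. For span percentiles they ran from 0.951 to 0.999, with 0 of 18082 genes called and 5.99% at an unadjusted p under 0.05. For summits per kb they ran from 0.843 to 0.966, with 0 genes called and 6.11% at an unadjusted p under 0.05. At RefSeq starts they ran from 0.919 to 0.997 for the 6 tested genes with an entry, with 0 of 10153 genes called and 6.23% at an unadjusted p under 0.05. With 4 and 3 libraries the standard errors of 0.34 to 0.42 at the gene ends leave room for differences of that order in either direction.

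**Figure D4:**
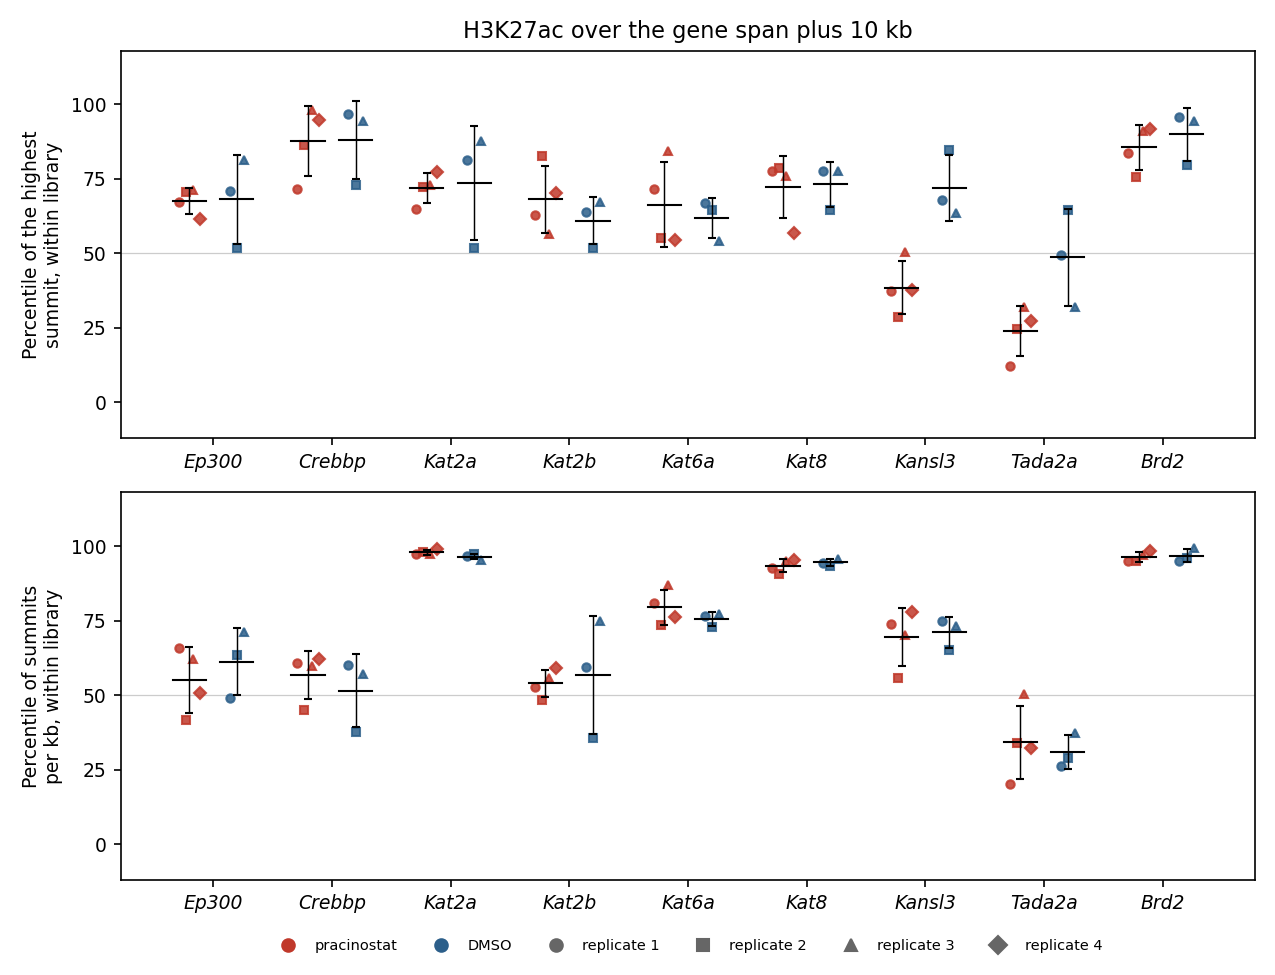
Percentile of the highest summit (upper panel) and of summits per kb (lower panel) over the gene plus 10 kb on both sides, by library, pracinostat left of DMSO, with lines for mean and SD. Kat2a, Brd2 and Kat8 stay above 90 for summits per kb in all 7 libraries, and Kansl3 alone has groups apart in the upper panel.

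By summits per kb, Kat2a (95.4 to 99.1 over the 7 libraries), Brd2 (95.0 to 99.3) and Kat8 (90.7 to 95.7) overlapped each other and came above Kat6a (72.7 to 87.1) without overlap. Kansl3 (55.9 to 77.9), Ep300 (41.6 to 71.3), Crebbp (37.5 to 62.1) and Kat2b (35.7 to 75.0) followed and overlapped their neighbours in that order. Tada2a reached the lowest values (20.1 to 50.2) and overlapped Ep300, Crebbp and Kat2b.

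The IgG libraries gave the background at these genes. Summits lay within 1 kb of a gene end in 33 of 36 pairs of a gene and an H3K27ac library with pracinostat and in 26 of 27 with DMSO. Of all genes, 58.4% to 61.4% had one there with pracinostat and 38.8% to 61.6% with DMSO. Outside DMSO replicate 2, end windows shifted by 100 kb held one for 33.7% to 42.7% of genes. With IgG the counts were 0 of 36 with pracinostat and 0 of 27 with DMSO, and they were the same at windows of 500 bp and 2.5 kb. Over the spans plus 10 kb, IgG gave 9 summits in all, 4 with pracinostat and 5 with DMSO, of which Crebbp had 3 and Ep300 and Brd2 had 0. The IgG summit of DMSO replicate 1 near Kat2a lay in the site chr11:100701330-100701786, which held summits in 6 H3K27ac libraries. No other of the 9 genes had an IgG summit at a site seen in 6 or 7 H3K27ac libraries. IgG lists were short, at 2194 to 10186 summits with pracinostat and 9244 to 18517 with DMSO, and reached 0.530% to 1.403% and 1.38% to 2.70% of all genes at their ends.

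The other genes of acetylation were looked at through 7 companion lists, which were also written with earlier results known. The genes named from each list are those with the largest differences in normal scores, whose order can differ from that of the percentile points printed. Cited1 and Brwd1 are named besides, for groups that did not overlap. None of their genes passed an adjusted p of 0.05 by limma in the gene end comparison. Among 12 partners of p300 and CBP, 4 had a higher and 8 a lower mean percentile with pracinostat. Their median difference was -5.40 points, or -1.98 without DMSO replicate 2, beside -0.30 over all genes with every library. The groups of Cited1 did not overlap, with pracinostat below DMSO, 1 of 12 genes beside a background of 3.79%. Crtc1, a coactivator of CREB, averaged 24.6 ± 18.1 with pracinostat and 57.7 ± 35.6 with DMSO (adjusted p 0.746 by limma). Ncoa2, a nuclear receptor coactivator, averaged 46.0 ± 11.1 and 72.9 ± 21.3, and Stat6, a transcription factor of the interleukin-4 response, averaged 92.3 ± 8.21 and 77.8 ± 15.1. Cited4, a small CBP-binding protein, averaged 17.99 ± 10.6 with pracinostat and 9.47 ± 8.28 with DMSO. For Crtc1, leaving out DMSO replicate 2 gave a difference of -52.6 points in place of -33.2, for Ncoa2 -16.6 in place of -26.9, for Stat6 6.83 in place of 14.4 and for Cited4 13.3 in place of 8.52.

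The 24 further subunits of SAGA and ATAC, the complexes of Kat2a, Kat2b and Tada2a, went 16 higher and 8 lower, with a median of 4.33 points that came to 0.173 without DMSO replicate 2. Tada3, an adaptor that works beside Tada2a, averaged 98.9 ± 1.73 with pracinostat and 93.9 ± 8.16 with DMSO. Taf12 averaged 79.1 ± 8.44 and 95.8 ± 4.91, and Sf3b3 averaged 45.0 ± 11.6 and 72.7 ± 18.1. Both of these had groups that did not overlap, 2 of 24 genes beside a background of 3.79%. Sgf29, a reader of methylated histone H3, averaged 47.8 ± 36.1 with pracinostat and 12.2 ± 6.69 with DMSO. None of the 4 passed an adjusted p of 0.05 by limma. For Tada3, leaving out DMSO replicate 2 gave a difference of 0.431 points in place of 5.06, and for Sf3b3 -17.2 in place of -27.7.

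The 10 other NSL and MSL subunits, which share complexes with Kansl3 and Kat8, went 6 higher and 4 lower with a median of 0.726 points, or 5.90 without DMSO replicate 2. Kansl1, the scaffold of NSL, averaged 31.9 ± 12.9 with pracinostat and 18.7 ± 6.59 with DMSO, so its mean lay on the other side from that of Kansl3. Msl2 averaged 92.1 ± 2.90 and 66.4 ± 22.1, Msl1 averaged 34.0 ± 12.8 and 40.9 ± 13.6, and Hcfc1 averaged 53.7 ± 7.65 and 63.3 ± 5.16. For Msl2, leaving out DMSO replicate 2 gave a difference of 16.2 points in place of 25.7, and for Msl1 -3.60 in place of -6.84. None of these passed an adjusted p of 0.05 by limma.

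Of 25 other subunits of the MYST and NuA4 complexes 24 were ranked, 8 higher and 16 lower, with a median of -3.03 points. Morf4l1, a chromodomain subunit of NuA4, averaged 63.5 ± 9.76 with pracinostat and 92.0 ± 6.40 with DMSO, and Ing3, a PHD finger subunit, averaged 55.9 ± 7.29 and 85.8 ± 16.4. Their groups did not overlap, 2 of 24 genes beside a background of 3.79%, and their adjusted p-values by limma were 0.700 and 0.737. Epc1 averaged 79.0 ± 18.8 and 63.0 ± 39.1, and Brd1 averaged 41.1 ± 9.92 and 28.9 ± 16.3. For Epc1, leaving out DMSO replicate 2 gave a difference of -6.03 points in place of 15.97, a change of sign, and that for Brd1 was 21.5 in place of 12.2.

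The list of 15 other acetyltransferases went 10 higher and 5 lower with a median of 2.62 points. They went 11 higher and 4 lower with a median of 5.68 points without DMSO replicate 2. In it, Naa30 averaged 70.7 ± 8.45 with pracinostat and 46.4 ± 29.2 with DMSO, Naa25 averaged 67.0 ± 17.8 and 45.2 ± 26.4, Naa40 averaged 41.4 ± 4.80 and 61.5 ± 22.2, and Esco2 averaged 28.2 ± 20.01 and 50.5 ± 3.41. The first 3 belong to the enzymes that acetylate protein N-termini, and Esco2 acetylates cohesin. The groups of Naa40 did not overlap, 1 of 15 genes in that direction beside a background of 3.79%. For Naa30, leaving out DMSO replicate 2 gave a difference of 10.53 points in place of 24.3, and for Naa25 8.61 in place of 21.7.

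Of 34 other readers of acetyl-lysine 29 were ranked, with 14 higher, 15 lower and a median of -0.591 points, or -1.28 without DMSO replicate 2. Atad2, an ATPase with a bromodomain, averaged 53.6 ± 8.42 with pracinostat and 83.2 ± 10.1 with DMSO, without overlap. The groups of Brwd1 did not overlap in that direction either, which made 2 of 29 genes beside a background of 3.79%. Zmynd11 averaged 20.9 ± 12.5 and 53.0 ± 24.8, Mllt3 averaged 34.5 ± 28.5 and 15.8 ± 9.08, and Trim24 averaged 48.2 ± 32.2 and 23.4 ± 7.64. For Zmynd11, leaving out DMSO replicate 2 gave a difference of -18.98 points in place of -32.1. None passed an adjusted p of 0.05 by limma.

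Among the genes that supply or consume acetyl-CoA, 9 of 10 were ranked, 4 higher and 5 lower, with a median of -1.69 points and of 0.0204 without DMSO replicate 2. Acaca, described above for the window it shares with Tada2a, averaged 12.1 ± 8.62 with pracinostat and 46.1 ± 30.9 with DMSO. Acly, which makes acetyl-CoA from citrate, averaged 75.3 ± 12.3 and 83.7 ± 3.83. Dlat and Pdhb, subunits of pyruvate dehydrogenase, averaged 82.7 ± 12.5 and 89.7 ± 1.75 with pracinostat, against 74.4 ± 12.8 and 84.2 ± 7.46 with DMSO. For Acaca, leaving out DMSO replicate 2 gave a difference of -21.0 points in place of -34.1, for Dlat 2.48 in place of 8.38 and for Pdhb 3.04 in place of 5.51.

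**Figure D5:**
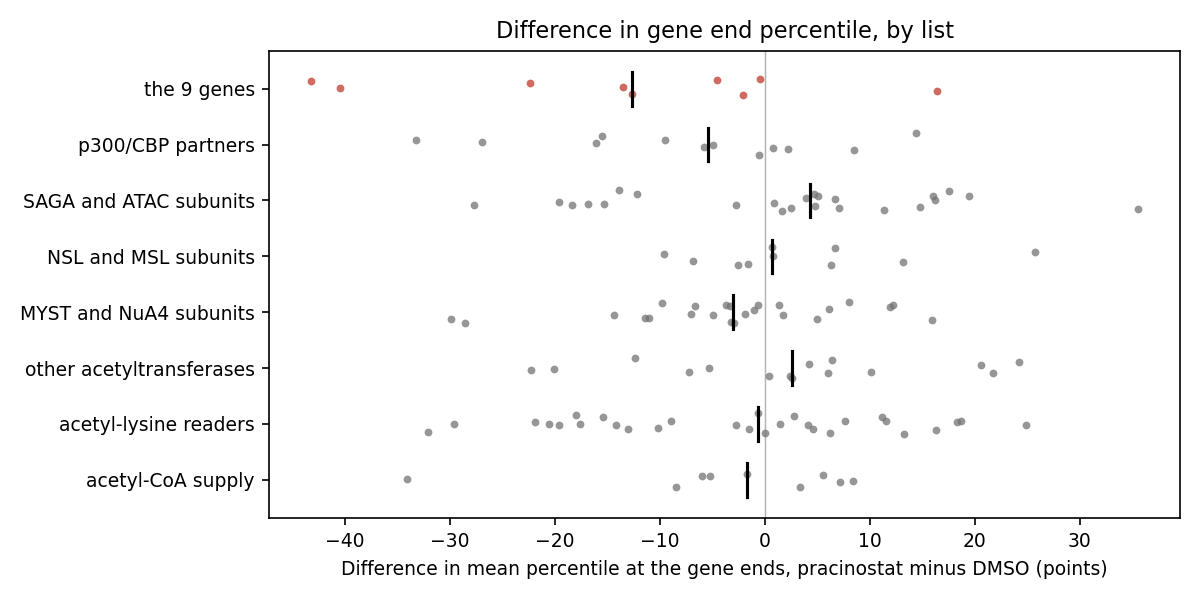
Difference in mean gene end percentile, pracinostat minus DMSO in points (horizontal axis), for the 9 genes and the ranked genes of the 7 companion lists, with 1 point per gene and a black line at the median of each list. Points of every companion list lie on both sides of 0.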

How the data were processed

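H3K27ac and IgG CUT&Tag libraries of sorted CD11b+ cells were analysed from 14 deposited summit lists, 1 per library. The deposited value per summit is a −log10 significance made by the authors, either of p or of q, which nothing states. The submitters' processing notes name build mm10 and the tools MACS2 2.2.9.1, HOMER, DESeq2 and Bowtie2. What each tool did, the threshold for a peak and whether IgG served as control were not found in the labels (not given in the sources used here). Since every list holds 1 library, peaks were called per library.

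Values were used only for ranks within a library. Genes came from RefSeq on GRCm38.p6, with start sites and strand for 8 of the 9 genes, all but Kat6a. Percentiles were taken for the highest summit within 1 kb of either gene end, for the highest summit over the gene plus 10 kb, and for summits per kb there, among genes that had a summit in 3 or more of 7 libraries. Genes without one were tied at the bottom. Percentiles became normal scores and were fitted with limma 3.58.1 in R 4.3.3 (trended, robust), with Benjamini-Hochberg adjustment over all ranked genes and 0.05 as the threshold. The fit was tested on simulated data. The labels do not say which animals gave which library, and each p-value measures only the spread between these libraries, which may be technical.

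Named were the 9 genes, neighbours with an end within 2 kb, in each companion list the 2 largest higher and 2 largest lower differences in normal scores, and the 3 genes most like Tada2a and Kansl3. Cited1, Brwd1 and the sites, further neighbouring genes and marker genes named beside these were chosen after their values were seen. The 9 genes and all lists were chosen with earlier results of these data known. Alternatives were other windows and flanks, filters, equal list lengths, the sum of values, covariates, weights, a replicate block and leaving out each library. Sequences are RefSeq's.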

Additional observations from a re-analysis of the deposited data

Results flagged for a closer look

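In 27 groups of 4 pracinostat libraries (9 genes, 3 kinds of percentile), 1 library was tested for lying far from the rest of its group by Dixon's ratio at the 95% level. Chance gives about 1 such group in 20. For Crebbp, summits per kb put pracinostat replicate 2 at 44.9, below 60.7, 59.8 and 62.1 in pracinostat replicates 1, 3 and 4, while DMSO libraries ran from 37.5 to 60.2. For Kat8, the span percentile of pracinostat replicate 4 was 56.8, below 77.5, 78.8 and 76.1 in pracinostat replicates 1 to 3, while DMSO libraries ran from 64.5 to 77.6.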

How the results depend on the processing

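Tada2a and Kansl3 kept lower gene end ranks with pracinostat under every alternative that ranked them. Both were chosen for lower ranks in these libraries, and the alternatives reuse the same summit lists, so nothing is read from this. With equal lists of 18000 summits neither was among the 6676 genes ranked at their ends. The Tada2a difference (normal scores, as are all below) was -0.958 at the RefSeq start alone and -1.61 to -1.18 with 1 library left out. That for Kansl3 was -1.37 to -0.857 with 1 library left out. No tested gene reached an adjusted p of 0.05 by limma in any alternative, the lowest being 0.717 for Crebbp without DMSO replicate 1. Over all genes, calls at the gene ends numbered 0 in the main comparison, 2 with a summit in at least 1 library, 1 with equal lists of 18000 summits, 2 with windows of 500 bp and 1 with the sum of values. They ran from 0 to 4 with 1 library left out, with 4 without DMSO replicate 3 and 1 without pracinostat replicate 2. Span calls numbered 1 with equal lists and 1 with no flank, and 0 to 2 with 1 library left out, with 2 without DMSO replicate 3. Density calls numbered 1 with no flank.

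Some differences changed sign. At the gene ends, Kat2a came to 0.0711 with the log2 number of summits as covariate and 0.00839 with limma's array weights, and Kat2b to -0.0209 at 500 bp, -0.0319 at 2.5 kb and -0.0288 at the 5′ end alone. Over the span, Kat8 came to 0.166 with no flank, and with 50 kb flanks Kat2a to 0.734 and Kat6a to -0.115. In density, Crebbp came to -0.0437 with the covariate and -0.0564 with equal lists, where Kat2a was -0.287 and Kat2b 0.372, and Kat8 came to 0.0362 with no flank. Equal lists put Kansl3 at -1.25 in density and -1.41 over the span, against -0.0378 and -0.909 with full lists. With 50 kb flanks Kansl3 came to -0.552 over the span and Tada2a to -0.332 (full lists, 10 kb: -0.698). The cause was not tested.

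With 1 library left out, gene end differences ran from -0.237 to 0.147 for Ep300, -0.203 to 0.0864 for Kat2a, -0.256 to 0.0299 for Kat6a, -1.0 to -0.268 for Crebbp, 0.291 to 0.597 for Kat2b, -0.708 to -0.196 for Kat8 and -0.979 to -0.435 for Brd2. Span differences ran from -0.376 to 0.251 for Crebbp, -0.0348 to 0.264 for Kat6a, -0.262 to 0.157 for Ep300, -0.148 to 0.126 for Kat8 and -0.439 to 0.118 for Kat2a. Density differences ran from -0.0411 to 0.248 for Crebbp, -0.358 to 0.163 for Kat2b and -0.275 to 0.124 for Brd2.

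No pairing by replicate number was seen: same-numbered libraries correlated between -0.0544 and 0.0278 in their deviations from group means. Libraries of unlike number correlated between -0.069 and 0.0961. The labels do not say whether samples were paired, and deviations from means of 3 and 4 libraries cannot settle it. The replicate block, in which pracinostat replicate 4 has no partner and adds nothing, gave 0 calls for all 3 percentiles, with unadjusted p under 0.05 in 704, 934 and 972 genes, and turned Ep300 to 0.0117 at the ends and 0.0184 over the span, and Kat8 to 0.126 over the span. Depth is known only through summit numbers, and the short list of DMSO replicate 2 left 37.9% of ranked genes tied at the bottom at the ends, against 6.84% to 11.2% in the other libraries.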
